A study of Mus musculus with 24 samples.

Results

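The 10 myeloid C-type lectin genes were followed in macrophages sorted from mouse colon tumors that carried or lacked Apc. They were taken from the 55487 rows of the count table by their Ensembl gene IDs, and all 10 were found: Clec4d, Clec4e, Clec4n, Clec5a, Clec7a, Clec10a, Clec12a, Clec4a1, Clec4a2 and Clec4a3. The cells were tumor-infiltrating macrophages sorted as CD45+ CD11b+ F4/80+ after Liberase digestion and red cell lysis. The tumors were orthotopic grafts of MC38, a mouse colon carcinoma line, in C57BL/6J mice, and the tumor cells were either APC-WT or APC-KO. The genotype label describes the grafted tumor cells, and the labels name no alteration of the host from which the macrophages came. Each genotype had 2 tumors and each tumor 6 libraries, 24 libraries in all. The labels describe 6 replicates of each sample, so the tumor is the unit of the genotype comparison. They give no age or sex of the mice, no time after grafting, and do not say how many APC-KO clones were used.

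C-type lectin receptors are surface proteins with a lectin-like fold that bind sugars, lipids or proteins of microbes and damaged cells. The activating receptors signal through the kinase Syk, either by a motif of their own (Clec7a, known as Dectin-1, a receptor for beta-glucan) or through a partner chain. Clec4e (Mincle), Clec4d (MCL) and Clec4n (Dectin-2) couple to the Fc receptor gamma chain encoded by Fcer1g, and Clec5a (MDL-1) to DAP12, encoded by Tyrobp. Clec12a (MICL) and Clec4a2 (DCIR) carry inhibitory motifs that recruit phosphatases such as SHP-1, encoded by Ptpn6. Clec4a1 and Clec4a3 are close relatives of Clec4a2, and Clec10a (MGL1) is a galactose-binding lectin of macrophages and dendritic cells.

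Of the 10 genes, 9 lie on chromosome 6 of GRCm38. A cluster on the distal part of the chromosome holds, in this order, Clec4a1 (122921848 to 122934619), Clec4a3 (122952515 to 122969875), Clec4a2 (123106428 to 123143999), Clec4n (123229843 to 123247021), Clec4d (123262111 to 123275265) and Clec4e (123281789 to 123289870). Clec4e is on the minus strand and the other genes of this cluster on the plus strand. Clec12a (129342691 to 129365303) and Clec7a (129461591 to 129472779) lie further along, and Clec5a (40574894 to 40585821) lies far upstream. Clec10a is on chromosome 11 (70156197 to 70170834). The promoters of 5 genes are shown because their levels were compared within the cluster, Clec4a1 and Clec4a3 with Clec4a2, and Clec4d with Clec4e. No window was matched for Clec4n. They are RefSeq windows on GRCm38.p6, each of 300 bases that reach from upstream of an annotated start to just past it, read along the gene. Capitals mark matches, on either strand, to 4 motifs: GAGGAA, the core bound by PU.1, a factor that specifies myeloid cells; TTGCNNAA for C/EBP; TGANTCA for AP-1; and GGGNNTTCC for NF-kB.
Clec4a1, chr6:122921598-122921897, plus strand: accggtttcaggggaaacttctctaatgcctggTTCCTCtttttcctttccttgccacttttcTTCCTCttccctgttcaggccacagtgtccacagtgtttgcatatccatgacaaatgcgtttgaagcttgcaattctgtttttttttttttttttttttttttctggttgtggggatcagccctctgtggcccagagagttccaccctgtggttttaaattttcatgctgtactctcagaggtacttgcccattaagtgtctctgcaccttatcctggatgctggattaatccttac
Clec4a3, chr6:122952394-122952693, plus strand: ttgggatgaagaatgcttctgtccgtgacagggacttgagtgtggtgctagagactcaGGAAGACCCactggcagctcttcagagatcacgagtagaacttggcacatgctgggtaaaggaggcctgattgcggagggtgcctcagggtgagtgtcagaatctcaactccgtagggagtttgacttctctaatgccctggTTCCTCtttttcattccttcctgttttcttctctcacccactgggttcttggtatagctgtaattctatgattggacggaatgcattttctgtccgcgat
Clec4a2, chr6:123122440-123122739, plus strand: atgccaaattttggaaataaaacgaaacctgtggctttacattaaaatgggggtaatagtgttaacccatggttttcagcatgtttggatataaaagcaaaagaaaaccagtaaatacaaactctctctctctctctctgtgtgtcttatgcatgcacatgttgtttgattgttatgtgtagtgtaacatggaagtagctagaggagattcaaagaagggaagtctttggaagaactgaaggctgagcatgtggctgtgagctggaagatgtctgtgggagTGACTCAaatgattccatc
Clec4d, chr6:123261857-123262156, plus strand: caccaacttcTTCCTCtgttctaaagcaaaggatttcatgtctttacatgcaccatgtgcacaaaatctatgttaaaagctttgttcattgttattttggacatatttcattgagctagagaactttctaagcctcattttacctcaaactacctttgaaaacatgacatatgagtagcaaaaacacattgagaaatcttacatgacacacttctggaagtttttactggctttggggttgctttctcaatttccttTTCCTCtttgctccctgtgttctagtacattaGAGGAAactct
Clec4e, chr6:123289822-123290121, minus strand: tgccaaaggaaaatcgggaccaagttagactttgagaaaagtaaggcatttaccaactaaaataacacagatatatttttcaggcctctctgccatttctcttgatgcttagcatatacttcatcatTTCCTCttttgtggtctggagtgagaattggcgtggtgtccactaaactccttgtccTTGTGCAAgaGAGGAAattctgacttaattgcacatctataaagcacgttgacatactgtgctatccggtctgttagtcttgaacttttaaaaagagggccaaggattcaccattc

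A promoter was matched for 8 of the 10 genes, with 10 windows in all, since Clec4a3 and Clec7a have 2 each. GAGGAA was found in 8 of the 10 windows, against 28.3% of 32851 promoters of the same length. By gene it was found in 7 of the 8. The 2 windows of a gene overlap, and those of Clec7a hold the same copy. The other window of Clec4a3, which starts further upstream, holds no GAGGAA. Clec4d held 3 copies, Clec4a1 and Clec4e held 2, and Clec4a2 held none. The windows of Clec4a2 and Clec12a lie inside the gene spans given above, so the sequence at the upstream end of either span was not searched. The C/EBP letters were found in Clec4e and Clec12a (10.8% of all promoters) and the AP-1 letters in Clec4a2 and Clec12a (7.81%). The NF-kB letters were found in Clec4a3 (5.82%). A match is only a run of letters, and these libraries do not measure binding of any factor.

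Levels are given as scaled CPM, read counts divided by the TMM-scaled total over expressed genes and put on the CPM scale. This scale was needed because the tumors differed in what their reads held. A library held between 28018638 and 93568353 counts in APC-WT and between 8895722 and 19328572 in APC-KO. Loci made of satellite-like repeats took 1.32% and 7.07% of counts in the APC-WT tumors and 37.8% and 38.5% in the APC-KO tumors. Counts spread evenly over exons, estimated from 1974 olfactory and vomeronasal receptor genes, came to 0.751% and 5.05% in the APC-WT tumors and to 17.6% and 17.9% in the APC-KO tumors. This expected background is given beside the levels. A gene was called expressed at a mean of at least 10 CPM over the 4 tumors and at least 10 times this background, and 3939 genes, 9 of the 10 lectins among them, were tested. In every test between genotypes 2 tumors stand against 2, and genotype cannot be told apart from these differences in library content. In bulk samples, fewer cells of a type and less RNA per cell cannot be told apart either.

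**Figure D1:**
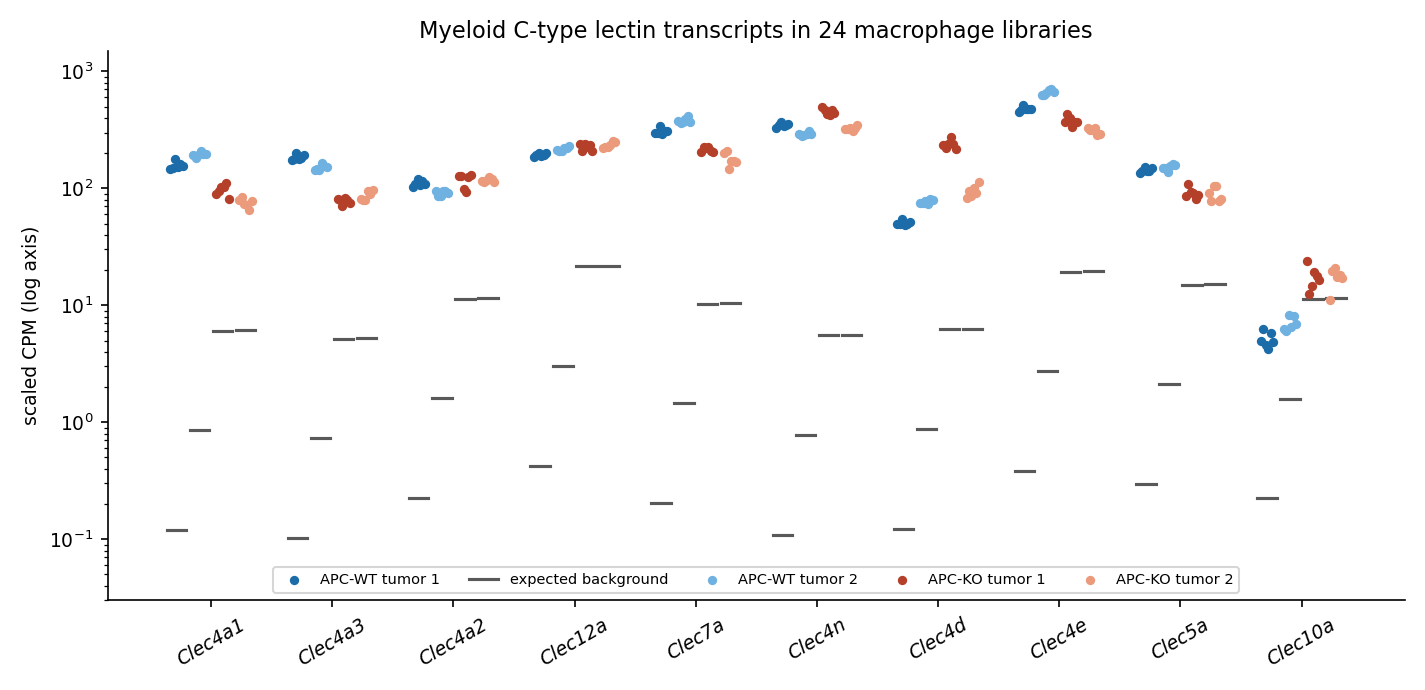
Each point is 1 library, in scaled CPM on a log axis, for 10 lectin genes in 2 tumors of each genotype, with 6 libraries per tumor. Short horizontal lines mark the expected background of each gene in each tumor; Clec4a1 and Clec4a3 lie lower in the APC-KO tumors, Clec4d is highest in APC-KO tumor 1, and Clec10a reaches its background in an APC-KO library.

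A pair of DCIR relatives was lower in macrophages of both APC-KO tumors. Clec4a3 ran, as lowest, median and highest library, at 173, 181 and 199 scaled CPM in APC-WT tumor 1 and at 143, 148 and 164 in APC-WT tumor 2. In APC-KO tumor 1 it ran at 70.9, 79.4 and 82.7, and in APC-KO tumor 2 at 78.7, 85.5 and 96.4. All 12 APC-KO libraries lay below all 12 APC-WT libraries, with an expected background of at most 5.24 in any tumor. Clec4a1 ran at 147, 154 and 178 scaled CPM in APC-WT tumor 1 and at 182, 194 and 208 in APC-WT tumor 2. It ran at 81.1, 98.4 and 111 in APC-KO tumor 1 and at 65.4, 75.8 and 83.5 in APC-KO tumor 2, again with no overlap between the genotypes and a background of at most 6.15.

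The genotype test was edgeR's quasi-likelihood test on the summed counts of each tumor, with Benjamini-Hochberg adjustment over all 3939 genes. It carried an offset for transcript length, because without one the median change was 0.99 over the 985 shortest expressed transcripts (at most 1637 bases) and -0.54 over the 985 longest (at least 3746 bases). The change from APC-WT to APC-KO was -1.67 ± 0.169 (log2, SE, 2 against 2 tumors) for Clec4a3 with an adjusted p of 0.00343, and -1.42 ± 0.166 for Clec4a1 with an adjusted p of 0.00433. Without the length offset both falls were smaller, at -0.99 (adjusted p = 0.00439) for Clec4a3 and -0.999 (adjusted p = 0.00870) for Clec4a1. These 2 genes were called lower in every alternative that kept the scale of expressed genes, including each tumor left out in turn. Scaled over all 53705 genes that passed edgeR's filterByExpr, no gene was called, 17844 had an unadjusted p under 0.05, and the lowest adjusted p was 0.0917. On that scale the expressed genes had a median change of -4.01 and all genes together one of 0.27. Clec4a3 stood at -5.09 and Clec4a1 at -4.93, below that median of expressed genes, while Clec4d stood above it at -2.43.

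Across the 9 tested lectins, 5 were called between genotypes, against 49.9% of all expressed genes. Among them 2 were higher in the APC-KO tumors (28.4% of all expressed genes were), namely Clec12a and Clec4a2, and 3 were lower (21.5%), namely Clec4a1, Clec4a3 and Clec7a. The share of lectins called is near that of all genes. The median change of the 9 was -0.17, against 0.04 over all expressed genes. Without the length offset the split was 0 higher and 5 lower, where 63.3% of all expressed genes were called (32.6% higher and 30.7% lower). The 5 were Clec4a1, Clec4a3, Clec4e, Clec5a and Clec7a. Clec4a1, Clec4a3 and Clec7a were thus called lower both with and without the offset. Clec12a (0.63 and 0.19) and Clec4a2 (0.47 and 0.25) were positive both ways but called only with it. Clec4d was positive both ways (0.75 and 1.40) and called in neither. Clec4e and Clec5a were negative both ways but called only without it, and Clec4n changed sign. Scaled over all genes, the 9 were all negative, as was the median of expressed genes at -4.01.

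**Figure D2:**
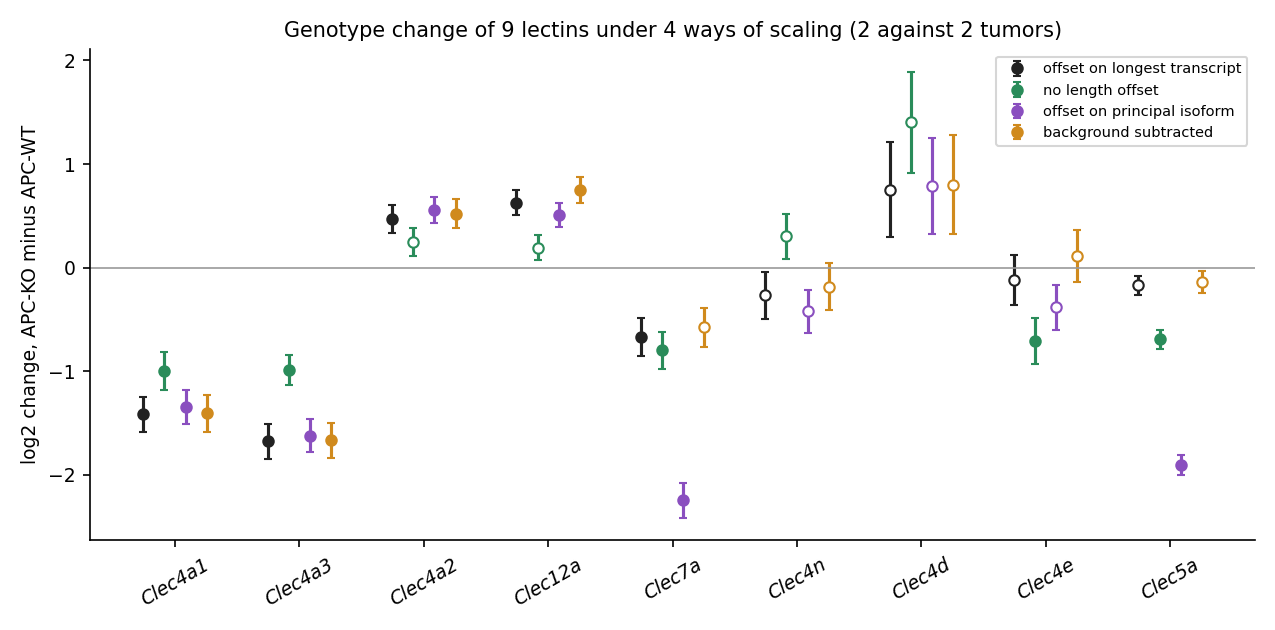
The log2 change from APC-WT to APC-KO (2 against 2 tumors) is plotted for 9 lectin genes under 4 treatments of length and background, with bars of 1 SE. Filled points have an adjusted p below 0.05 in edgeR; Clec4a1, Clec4a3 and Clec7a lie below 0 under all 4, while Clec4n and Clec4e cross 0 and Clec5a ranges from -0.14 to -1.90.

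The receptors with inhibitory motifs, Clec4a2 and Clec12a, were called higher in APC-KO with the length offset and not without it. Clec4a2 ran at 104, 109 and 121 scaled CPM in APC-WT tumor 1 and at 85.8, 92.8 and 94.5 in APC-WT tumor 2. It ran at 93.0, 126 and 131 in APC-KO tumor 1 and at 112, 117 and 125 in APC-KO tumor 2. The libraries of the genotypes overlapped, and the background in the APC-KO tumors was 11.4 and 11.6. With the offset Clec4a2 was higher in APC-KO by 0.47 ± 0.134 (log2, SE, adjusted p = 0.0404). This call was lost without the offset (0.25, adjusted p = 0.167), under the looser limit for expressed genes (0.02, adjusted p = 0.930), without replicate 1 (0.45, adjusted p = 0.0581), and without either APC-KO tumor (0.43 and 0.45) or APC-WT tumor 2 (0.33). Of the 31-base words in Clec4a2 transcripts 10.9% occur in other genes, 4.96% in Clec4a4, so its counts are less certain than those of its neighbours.

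Clec12a ran at 184, 192 and 201 scaled CPM in APC-WT tumor 1 and at 206.5, 215 and 229 in APC-WT tumor 2. It ran at 209, 230 and 240 in APC-KO tumor 1 and at 220, 232 and 252 in APC-KO tumor 2, over a background of 21.5 and 21.8. APC-WT tumor 2 and both APC-KO tumors overlapped. With the offset the change was 0.63 ± 0.119 (adjusted p = 0.0135), and without it 0.19 (adjusted p = 0.221). The call was also lost under the looser limit (0.16, adjusted p = 0.311) and without either APC-KO tumor (0.63 and 0.56, adjusted p = 0.0887 and 0.109).

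Ratios of genes within a library need no scaling between libraries, although they keep differences of length and background. Ratios were computed for 5 pairs, chosen after their values were seen. The log2 ratio of Clec4a3 to Clec4a2 was 0.73 ± 0.048 and 0.72 ± 0.067 (SD, n = 6 libraries) in the APC-WT tumors and -0.57 ± 0.22 and -0.44 ± 0.12 in the APC-KO tumors. Clec4a3 thus gave more counts than Clec4a2 in every APC-WT library and fewer in every APC-KO library. After subtraction of the expected background the mean ratios were 0.73, 0.74, -0.55 and -0.37. For Clec4a1 over Clec4a2 the ratio was 0.50 and 1.09 in the APC-WT tumors and -0.27 and -0.64 in the APC-KO tumors, with the highest APC-KO library at 0.15 and the lowest APC-WT library at 0.45. With 2 tumors against 2, the two-sided exact permutation test cannot give a p below 0.333, which is the value for both ratios.

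**Figure D3:**
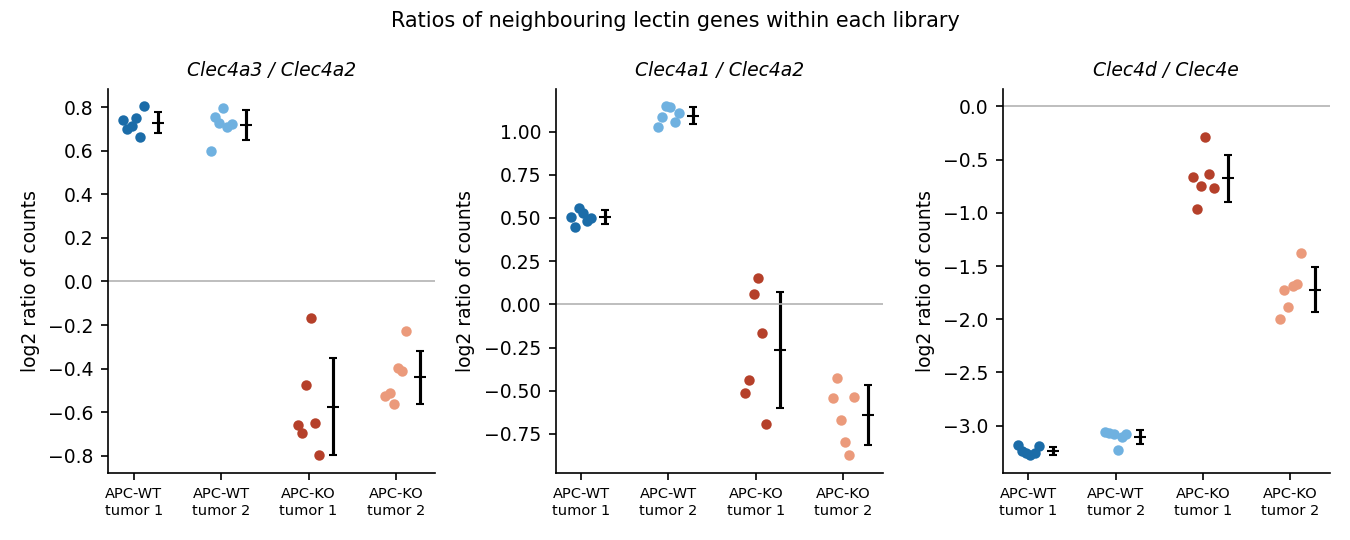
Each point is the log2 ratio of the counts of 2 lectin genes of the cluster on chromosome 6 in 1 library. The mean and SD of the 6 libraries of a tumor stand beside the points. The ratio of Clec4a3 to Clec4a2 is above 0 in both APC-WT tumors and below 0 in both APC-KO tumors, and the ratio of Clec4d to Clec4e has means of -3.24 and -3.10 in APC-WT and of -0.68 and -1.72 in APC-KO.

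Among the activating receptors, Clec7a was lower in both APC-KO tumors. It ran at 293, 305 and 342 scaled CPM in APC-WT tumor 1 and at 361, 372 and 412 in APC-WT tumor 2, against 203, 215 and 227 in APC-KO tumor 1 and 146, 170 and 207 in APC-KO tumor 2. The genotypes did not overlap, and the background was at most 10.4. The change was -0.67 ± 0.180 (adjusted p = 0.0349). The call was lost after subtraction of the background (-0.58, adjusted p = 0.0607), with GC content added to the offset (-0.55, adjusted p = 0.0655), under the stricter limit (-0.40, adjusted p = 0.144), and without either APC-KO tumor (-0.85 and -0.57) or APC-WT tumor 2 (-0.52), always as a lower value. With the offset taken from the principal isoform, 707 bases long against 2277 for the longest transcript, the change was -2.25. The annotation used here types Clec7a as a polymorphic pseudogene. Clec12a is the nearest of the 10 genes on the chromosome, 96287 bases away. Against it the log2 ratio of Clec7a was 0.68 and 0.81 in the APC-WT tumors and -0.07 and -0.42 in the APC-KO tumors. The longest transcript of Clec12a has 3233 bases, and this ratio carries no correction for length.

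Clec4d, the partner of Mincle, had the largest positive change of the 9 lectins, which did not pass the test and lay mostly in APC-KO tumor 1. It ran at 48.8, 49.6 and 54.2 scaled CPM in APC-WT tumor 1 and at 73.3, 76.3 and 81.8 in APC-WT tumor 2. In APC-KO tumor 1 it ran at 219, 236 and 276, and in APC-KO tumor 2 at 82.0, 93.1 and 112, over a background of 6.22 and 6.32. The lowest APC-KO library lay just above the highest APC-WT library. The genotype change was 0.75 ± 0.461 with an adjusted p of 0.228. It was -0.05 without APC-KO tumor 1 and 1.21 without APC-KO tumor 2. Without the length offset it was 1.40 (adjusted p = 0.0589).

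Clec4e and Clec4n, the other receptors that use the gamma chain, did not pass the genotype test. Clec4e had means of 477 ± 23.2 and 662 ± 31.5 scaled CPM (SD, n = 6 libraries) in the APC-WT tumors and 380 ± 31.9 and 311 ± 16.9 in the APC-KO tumors, so the 12 libraries of one genotype lay below those of the other. Its change was -0.12 ± 0.238 (adjusted p = 0.704) with the offset and -0.71 (adjusted p = 0.0440) without it. After subtraction of its background, which was 19.3 and 19.6 in the APC-KO tumors, it was 0.11. Clec4n had means of 348 ± 12.8 and 293 ± 10.7 in the APC-WT tumors and 453 ± 26.3 and 324 ± 13.3 in the APC-KO tumors, with overlap between the genotypes. Its change was -0.27 ± 0.225 (adjusted p = 0.364) with the offset and 0.30 (adjusted p = 0.284) without it.

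Clec4d and Clec4e lie side by side on opposite strands, yet their balance differed between the tumors. The log2 ratio of Clec4d to Clec4e was -3.24 ± 0.038 and -3.10 ± 0.064 (SD, n = 6 libraries) in the APC-WT tumors. It was -0.68 ± 0.22 in APC-KO tumor 1 and -1.72 ± 0.21 in APC-KO tumor 2, above every APC-WT library. The transcripts differ in length, with 1323 bases for Clec4d and 4804 for the longest form of Clec4e, and this ratio carries no correction for length. Against Clec4n, whose longest transcript of 1404 bases is close to that of Clec4d, the ratio of Clec4d was -2.78 and -1.93 in the APC-WT tumors and -0.93 and -1.78 in the APC-KO tumors. On that ratio APC-KO tumor 2 overlapped APC-WT tumor 2. For both ratios the exact permutation p over tumors was 0.333, the smallest possible.

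Clec5a, the lectin that signals through DAP12, had means of 143 ± 6.33 and 151 ± 7.93 scaled CPM in the APC-WT tumors and 91.0 ± 9.48 and 89.8 ± 12.5 in the APC-KO tumors, over a background of 14.9 and 15.2. The libraries of the genotypes did not overlap. Its change was -0.17 ± 0.0937 (adjusted p = 0.190) with the offset and -0.69 (adjusted p = 0.00345) without it. Its longest transcript has 3747 bases and its principal isoform 858, and with the latter as the length the change was -1.90 (adjusted p = 0.00363). Which form these macrophages make was not measured.

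Clec10a stayed below the limit for expressed genes and was not tested. Its means were 5.12 ± 0.733 and 7.03 ± 0.953 scaled CPM in the APC-WT tumors and 17.5 ± 4.03 and 17.4 ± 3.34 in the APC-KO tumors. The expected background was 0.223 and 1.60 in the APC-WT tumors and 11.3 and 11.4 in the APC-KO tumors, so the higher APC-KO values lay at 1.55 and 1.52 times the background. Of its 31-base words 14.8% occur in other genes, 13.7% in its near copy Mgl2.

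Counting the 9 lectins by overlap, 6 had 12 APC-KO libraries that did not overlap the 12 APC-WT libraries on the scaled CPM, against 56.5% of all expressed genes. Clec4d was the gene that lay higher (28.1% of genes did), and Clec4e, Clec5a, Clec7a, Clec4a1 and Clec4a3 lay lower (28.4%). For Clec4d the gap was narrow, with 82.0 in a library of APC-KO tumor 2 and 81.8 in one of APC-WT tumor 2. The expected background was 6.32 and 0.880 in these tumors and was not subtracted. The levels carry no correction for length, and with the length offset Clec4d, Clec4e and Clec5a were not called. In a fit of the 24 libraries with a mean for each tumor, Clec12a and Clec4a2 were called higher whichever tumor of one genotype was set against whichever of the other (4 pairs, 32.2% of all expressed genes were). Clec4a1, Clec4a3 and Clec7a were called lower in all 4 pairs (28.3%). The pairs share tumors, and such p-values measure only the spread between libraries of a tumor, which may be technical.

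Tumors of 1 genotype also differed in these genes. Between the APC-WT tumors 8 of the 9 lectins were called, against 47.5% of expressed genes, with 5 higher in tumor 2 (19.7%) and 3 lower (27.7%). Clec4e was higher in APC-WT tumor 2 by 0.55 ± 0.0504 (log2, SE) and Clec4d by 0.52 ± 0.0623, followed by Clec7a, Clec4a1 and Clec12a. Clec4a3 was lower there at -0.37 ± 0.0526, Clec4n at -0.33 ± 0.0384 and Clec4a2 at -0.29 ± 0.0683. Between the APC-KO tumors 6 were called, against 33.5%, with Clec4a3 higher in tumor 2 at 0.18 ± 0.0557 (15.4% of genes were higher) and 5 genes lower (18.1%). The largest of these differences was that of Clec4d, at -1.30 ± 0.0647, followed by Clec4n at -0.46 ± 0.0389, while Clec4a1, Clec7a and Clec4e lay between -0.30 and -0.35. Clec4a1 and Clec4a3, both lower in APC-KO, moved in opposite directions within each genotype.

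Per kilobase of the longest transcript and above the expected background, Clec4n was the highest lectin in both genotypes. Its means over the 2 tumors of a genotype were 228 scaled CPM per kb in APC-WT and 273 in APC-KO. In APC-WT it was followed by Clec7a at 151, Clec4a3 at 128, Clec4e at 118 and Clec4a1 at 113, neighbours whose tumors overlapped. Then came Clec12a at 62.7, Clec4d at 47.8, Clec4a2 at 40.3 and Clec5a at 39.0, the last 3 with overlapping tumors, and Clec10a at 2.22. In APC-KO Clec4d came next at 121, with its 2 tumors at 175 and 66.7. Clec7a followed at 81.4, Clec4e at 67.9, Clec12a at 64.6, Clec4a3 at 59.4, Clec4a1 at 51.4, Clec4a2 at 42.6, Clec5a at 20.1 and Clec10a at 2.61. From Clec4d to Clec12a each gene overlapped the next, as did Clec4a3 and Clec4a1. The place of a gene with forms of unlike length, such as Clec5a and Clec7a, depends on the form taken. Division by length does not remove the length trend between genotypes. Without the offset the median change was 0.99 over the shortest transcripts (at most 1637 bases) and -0.54 over the longest. Clec4n and Clec4d, at 1404 and 1323 bases, are among the shortest, and the change of Clec4n was -0.27 with the offset.

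Of 10 neutrophil markers 4 were tested between genotypes, and they did not follow Clec4d alike. With the length offset 0 were higher and 1 lower (28.4% and 21.5% of all expressed genes were), with a median of -0.30. Without the offset 0 were higher and 1 lower, with a median of 0.74. The scaled CPM given for this list carry no correction for length. S100a8 and S100a9, the calprotectin subunits abundant in neutrophils and some monocytes, had means of 9.83 and 18.4 scaled CPM in APC-WT tumor 1 and 41.2 and 79.6 in APC-WT tumor 2. They reached 94.0 and 187 in APC-KO tumor 1 and 40.1 and 71.1 in APC-KO tumor 2. Csf3r, a growth factor receptor gene and the most abundant marker of the list, was lower in APC-KO, with 264 and 373 in the APC-WT tumors and 115 and 88.1 in the APC-KO tumors. Mmp8, a neutrophil collagenase, had 23.2 and 55.2 in the APC-WT tumors and 58.0 and 20.7 in the APC-KO tumors, and the mean of APC-KO tumor 2 lay below those of both APC-WT tumors. The 10 neutrophil markers summed to 308 to 333 and 555 to 639 in libraries of the APC-WT tumors and to 498 to 574 and 263 to 307 in those of the APC-KO tumors, and none was at 0 in every library. Ly6g, a defining neutrophil gene, was at 0.341 and 0.957 in the APC-WT tumors and at 5.18 and 4.33 in the APC-KO tumors, where its expected background was 3.66 and 3.72. The part of such cells in the level of Clec4d was not tested.

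Ranked by distance over the 24 libraries, after each gene was centred on its own mean log2 scaled CPM, the gene most like Clec4d among 3765 coding genes was Cxcl3, a neutrophil-attracting chemokine. Its distance was 0.733, against a median of 4.34 over those genes. Cxcl3 had means of 174 ± 22.5 and 255 ± 18.5 scaled CPM in the APC-WT tumors and 879 ± 67.5 and 300.01 ± 42.2 in the APC-KO tumors. Next came Il6, the inflammatory cytokine, at a distance of 1.18, with 43.6 and 84.2 in the APC-WT tumors against 202 and 84.3 in the APC-KO tumors, and then Tppp3 at 1.25. The genes most like Clec4a3 were Lgmn, a lysosomal protease, at a distance of 0.414, Ddb1 at 0.454 and the interferon response factor Irf7 at 0.473, against a median of 2.84. Lgmn had means of 4153 and 3504 scaled CPM in the APC-WT tumors and 1727 and 1947 in the APC-KO tumors, and Irf7 had 1860 and 1654 against 801 and 923. These distances are a description, with libraries of 1 tumor sharing their source. They were taken on levels without the length offset, and the part of transcript length in them was not tested.

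**Figure D4:**
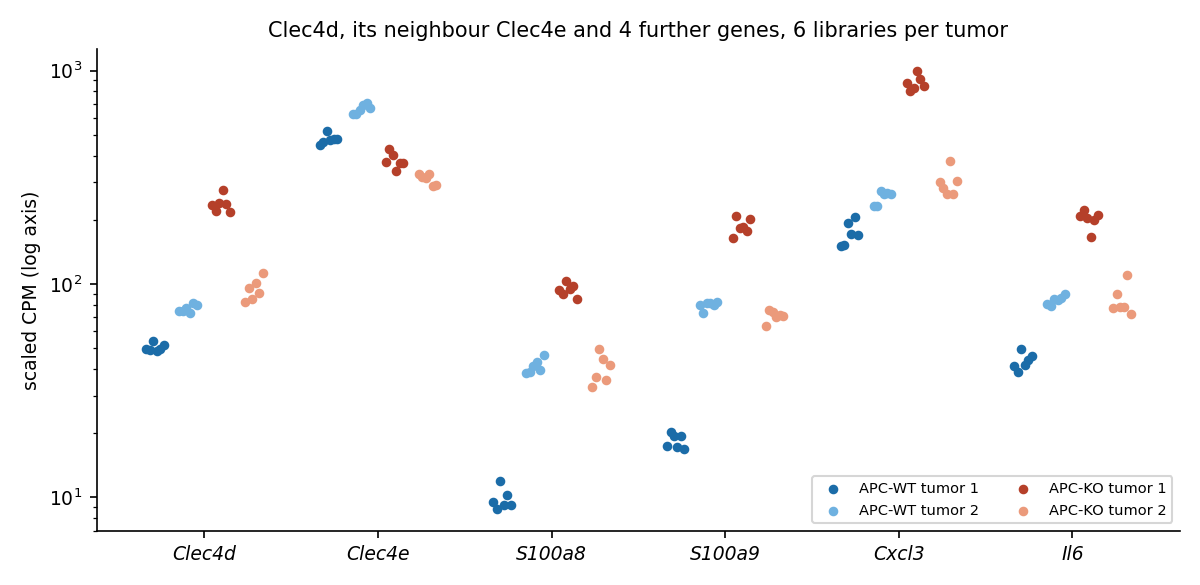
Each point is 1 library, in scaled CPM on a log axis, for Clec4d, Clec4e, the calprotectin genes S100a8 and S100a9, and the 2 genes whose pattern was most like Clec4d, Cxcl3 and Il6. All but Clec4e are highest in APC-KO tumor 1, where Cxcl3 has a mean of 879, and Clec4e is highest in APC-WT tumor 2. The levels carry no correction for transcript length.

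The signalling partners of these receptors were described from a list of 18 adaptor and proximal signalling genes. Of the 14 tested, 9 were lower in APC-KO and 1, the adaptor Blnk, was higher, with a median of -0.78. Over all expressed genes 21.5% were lower and 28.4% higher. The change of Blnk was 0.66 (adjusted p = 0.0256) with the offset and 0.07 (adjusted p = 0.758) without it, and the count of higher genes was 0 without either APC-KO tumor, under the stricter limit and with the principal isoform as the length. Plcg2, a phospholipase downstream of Syk, changed by -1.06 ± 0.126 (adjusted p = 0.00447), from 422 and 377 scaled CPM in the APC-WT tumors to 130.1 and 122 in the APC-KO tumors. Lcp2 (SLP-76), a scaffold, changed by -0.997 ± 0.121 (adjusted p = 0.00471). Plcg2 and Lcp2 were also lower without the offset, at -1.64 and -1.51. The partner chains had the opposite sign on the unadjusted scale. Fcer1g had means of 858 and 767 in the APC-WT tumors and 989 and 1055 in the APC-KO tumors, and its change was -1.08 ± 0.159 (adjusted p = 0.00721) with the offset and 0.35 (adjusted p = 0.101) without it. Tyrobp changed by -0.74 ± 0.155 (adjusted p = 0.0172) with the offset and by 0.81 (adjusted p = 0.00927) without it. Syk, at 409 and 412 against 234 and 172, had a change of -0.41 that did not pass (adjusted p = 0.146), and -0.99 (adjusted p = 0.0103) without the offset. With APC-KO tumor 1 left out 3 genes of this list were called lower, and with APC-KO tumor 2 left out 2.

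Of 8 genes for phosphatases and docking proteins that act on or below inhibitory receptors, 6 were tested. Among these 3 were lower (21.5% of all expressed genes were) and 0 higher (28.4%), with a median of -0.64. The phosphatase of ITIM receptors, Ptpn6, changed by -1.01 ± 0.141 (adjusted p = 0.00622), from 907 and 924 scaled CPM to 379 and 428. Inpp5d (SHIP-1) changed by -1.25 ± 0.197 (adjusted p = 0.00864). Dusp1, a phosphatase of MAP kinases, changed by -1.73 ± 0.240 (adjusted p = 0.00613), from 8759 and 8360 to 1751 and 2764. All 3 were lower without the offset too.

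Of 21 genes for transcription factors and inducible products that act below these receptors, 19 were tested. Among these 1 was higher (28.4% of all expressed genes were) and 4 were lower (21.5%), with a median of -0.46. The share of this list called lower is near that of all genes. The chemokine Cxcl2 was higher by 0.87 ± 0.247 (adjusted p = 0.0404), with 2504 and 2119 scaled CPM in the APC-WT tumors and 4902 and 3466 in the APC-KO tumors. Ptgs2, the inducible cyclooxygenase, was lower at -1.60 ± 0.324 (adjusted p = 0.0160), and Nfatc1 at -0.60 ± 0.131 (adjusted p = 0.0199). Ccl3 was lower with the offset (-0.98 ± 0.212, adjusted p = 0.0194), while its change without it was 0.34 (adjusted p = 0.241). In this list 14 genes did not pass, Il1b, Tnf and Il6 among them.

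Of 41 other C-type lectin genes 7 reached the limit for expressed genes, Mrc1, Cd302, Cd69, Cd72, Cd93, Thbd and Klrb1b. Cd72, an inhibitory receptor, was lower at -0.65 ± 0.141 (adjusted p = 0.0192), from 1430 and 1475 scaled CPM to 731 and 784. Thbd (thrombomodulin) was higher by 1.18 ± 0.218 (adjusted p = 0.0124), from 41.1 and 56.6 to 86.6 and 66.7 over a background of 14.5 in APC-KO tumor 1. Mrc1, the mannose receptor, had 373 and 157 in the APC-WT tumors and 171 and 251 in the APC-KO tumors, a change of 0.28 that did not pass (adjusted p = 0.604). Among the 34 genes below the limit, 7 stayed under 2 times their background in every tumor.

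The sort was checked against its markers. Among 12 macrophage markers, all expressed, the most abundant were Cd14 (9701 and 8352 scaled CPM in the APC-WT tumors, 7405 and 7700.3 in the APC-KO tumors), C1qb and C1qc. In this list 6 were lower in APC-KO (21.5% of all expressed genes were) and 0 higher (28.4%), with a median of -0.72. The genes of 2 sorted antigens were among them: Adgre1 (F4/80) changed by -1.65 ± 0.153 (adjusted p = 0.00295) and Itgam (CD11b) by -1.98 ± 0.154 (adjusted p = 0.00255). These 2 genes were picked after their values were seen. The falls of Clec4a1 and Clec4a3 are near in size to theirs and larger than the median of the list. Of the 12 markers 6 were not called with the offset. Without it 5 were called lower and 0 higher, with a median of -0.40. The list summed to 34899 to 36176 and 28837 to 29770 scaled CPM in libraries of the APC-WT tumors. In those of the APC-KO tumors it summed to 25791 to 27366 and 28500 to 29114. The part of macrophage content in the falls of Clec4a1 and Clec4a3 was not tested. The 8 markers of T and NK cells were led by Cd3g, Nkg7 and Cd3e, and none was called expressed. Their sum was 21.3 to 25.9 and 39.4 to 43.9 in the APC-WT tumors, over an expected background of 1.56 and 11.1. In APC-KO tumor 1 it was 95.6 to 129 over a background of 78.6. In APC-KO tumor 2 it was 228 to 251 over a background of 79.9. Epithelial markers, led by Krt8, Krt19 and Cdh1, were highest in APC-WT tumor 2, where 7 genes summed to 579 to 622, and fibroblast markers, led by Col3a1, Col1a1 and Dcn, in APC-WT tumor 1, where 6 genes summed to 1587 to 1737. The 8 monocyte markers, led by Fn1, Ccr2 and F13a1, summed to 1929 to 2735 in APC-WT and 1306 to 1433 in APC-KO libraries. The 8 dendritic cell markers, led by Itgax, Flt3 and Xcr1, summed to 308 to 389 and 351 to 435. The expected background of the dendritic sum was 2.53 and 18.1 in the APC-WT tumors and 128 and 130 in the APC-KO tumors. Itgax, the only gene of that list tested, was called lower in APC-KO, at -1.01 with the offset and -1.57 without it. In no marker list was a gene at 0 in every library.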

How the data were processed

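The authors deposited whole-number counts for 55487 gene IDs in 24 libraries, per the file headers. The submitters' processing notes list HISAT2 and StringTie beside bcl2fastq 2.20.0, with mm9 as the build, and give no roles, settings, strand or annotation. Per the labels' protocols, total RNA of sorted cells went into a Nextera XT ultra low input protocol. Symbols, positions and transcript lengths came from GENCODE M21 (GRCm38) by gene ID, and 55227 IDs matched. All coordinates are on GRCm38 and none on mm9.

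From these deposited counts the tests were run with edgeR 4.0.16, with DESeq2 1.42.0 and limma 3.58.1 as alternatives (R 4.3.3), and tables were made in Python 3.11.15. Adjusted p-values are from edgeR's quasi-likelihood test with Benjamini-Hochberg adjustment at 0.05, unless another tool is named. The length offset was a loess fit (span 0.5, prior count 2) of log2 CPM on log2 longest-transcript length within each tumor. Satellite-like loci (11, sharing at least 0.4 of their 15-mers) stayed out of the expressed genes. Tumor sums served the genotype test, and single libraries the comparisons of tumors. The scripts were tested on simulated data. The 10 members, the gene lists, the limits and the tests were chosen with earlier results of these data known. All members are named, then up to 4 called genes with the smallest p per pathway or family list, the 3 most abundant genes of the marker lists, and the 3 genes most like the members with the largest fall and rise. A gene this rule would name is left out of the text. Tyrobp, Syk, Blnk, Tnf, Il1b, Mrc1, Ly6g, Mmp8, Adgre1 and Itgam fall outside this rule and were chosen after their values were seen. Libraries of 1 tumor were distinct, with a chi-square per gene of at least 6.46. Same-numbered libraries did not deviate together, so the numbers were not treated as pairs.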

Additional observations from a re-analysis of the deposited data

Results flagged for a closer look

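In 40 groups of 6 libraries (10 lectins in 4 tumors), 2 held a library far from the other 5 by Dixon's criterion, which chance alone meets in about 1 in 20 groups. Clec4d stood at 276.4 scaled CPM in replicate 4 of APC-KO tumor 1, while the other 5 libraries of that tumor lay between 218.8 and 240.0. Clec7a stood at 341.7 scaled CPM in replicate 3 of APC-WT tumor 1, while the other 5 lay between 293.2 and 311.2. The genotype change of Clec4d was 0.71 without replicate 4 of every tumor, and that of Clec7a was -0.64 without replicate 3 of every tumor (adjusted p = 0.0355).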

How the results depend on the processing

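The offset on the principal isoform was chosen after seeing the data. Between genotypes 2 lectins were called higher and 3 lower. The higher count was 0 with all genes scaled together, 0 under the looser limit for expressed genes and 0 without a length offset. The lower count was 0 with all genes and 5 without the offset. With each tumor left out the higher count ranged from 0 to 2, and with each replicate left out from 1 to 2. Over all expressed genes 1118 were higher and 848 lower. These counts were 0 and 0 with all genes, 2068 and 1954 under the looser limit, and 504 and 380 under the stricter limit. With a tumor or a replicate left out they ranged from 379 to 1145 and from 247 to 876, lowest without APC-KO tumor 2. In a fit with 1 tumor left out, the lone tumor is assumed to vary like the other genotype. Between the APC-WT tumors 5 lectins were higher, and 3 under the looser limit. Between the APC-KO tumors 1 was higher, and 0 to 1 with each replicate left out (0 without replicate 5 or 6). In all 4 pairs 2 were higher and 3 lower. These became 0 and 6 under the looser limit, and 1 and 5 without the offset.

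Signs turned as follows, and the cause was not tested. Clec4d was at -2.43 with all genes and -0.052 without APC-KO tumor 1 (highest with a tumor left out, 1.21 without APC-KO tumor 2). Clec4e was at 0.11 with background subtracted, 0.18 without APC-WT tumor 2 (-0.36 without APC-WT tumor 1), 0.0084 with GC content in the offset and 0.28 under the stricter limit. Clec4n was at 0.30 without the offset. Clec5a was at 0.023 with GC content in the offset and 0.23 under the stricter limit. With all genes Clec12a was at -3.78 and Clec4a2 at -3.85. Between the APC-KO tumors Clec5a ranged from -0.073 without replicate 4 to 0.068 without replicate 2, and Clec4a2 at 0.0016 without the offset and at 0.0085, 0.018 and 0.022 without replicates 1, 2 and 6 (lowest -0.099, without replicate 4). Replicate numbers did not pair the libraries: same-numbered libraries of different tumors had correlations from -0.468 to 0.719 (median -0.0118, 36 pairs), and 6 of 24 libraries correlated best with one of their own number. With the replicate block 5 lectins were higher and 3 lower between the APC-WT tumors, and 1 and 5 between the APC-KO tumors, the same counts as without it. The deepest APC-KO tumor held 91084172 counts, of which 31.8% fell on expressed genes.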
